A study of Mus musculus with 2 samples.

Results

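Cycling C1q macrophages are tumour macrophages that carry complement C1q transcripts together with transcripts of the cell division genes Mki67 and Top2a. They were read from single-cell RNA of live CD45-positive leukocytes sorted from MC38 tumours, a transplantable mouse colon carcinoma line. The first library came from SPP1fl/fl-Lyz2-icre mice (called Lyz2-icre here), in which a Cre recombinase driven by the Lyz2 locus acts in macrophages, monocytes and neutrophils on a floxed Spp1 gene. The other came from SPP1fl/fl mice (called control here), which carry the same floxed gene and no Cre. Neither age nor the number of mice behind a library was given in the labels, and no other treatment was named. A cell was a member when C1qa, C1qb and C1qc made up at least 0.3% of its unique molecular identifiers (UMIs, counts of captured RNA molecules), Cd3d, Cd3e and Cd3g had none, S100a8 and S100a9 stayed under 1%, and Mki67 and Top2a together had 3 or more UMIs. The rule found 3114 members, 1900 in the Lyz2-icre library and 1214 in the control library. They stood among 15746 C1q cells, defined by the same conditions whatever their Mki67 and Top2a, and among 22639 cells kept in all. They were set against 9508 non-cycling C1q cells with no Mki67 or Top2a UMI, of which 6416 were Lyz2-icre and 3092 control. Another 3124 C1q cells had 1 or 2 such UMIs and belong to neither class.

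Tissue macrophages arise from circulating monocytes or renew themselves by dividing in place, and tumours hold both kinds. A dividing cell first licenses its replication origins with the MCM helicase, then copies its DNA with replication fork proteins and new nucleotides in S phase, and finally builds the mitotic spindle under cyclin B and Cdk1. Mki67 coats mitotic chromosomes and Top2a untangles sister DNA, and both are made mostly late in the cycle. C1q, the first component of the classical complement pathway, is made by mature macrophages. Spp1 encodes osteopontin, a secreted phosphoprotein that many tumour macrophages make, and the study was designed to look at the effect of macrophage Spp1 in colorectal tumours.

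Each genotype had 1 library, which leaves nothing to test a genotype difference against, and no p-value is given. All intervals are 95% intervals for counting error alone; variation from mouse to mouse is outside them. Expression is given as CPM, the UMIs of a gene summed over a class of cells and scaled to a class total of 1000000 UMIs. Log2 ratios are on the scale of CPM + 5. The 2 libraries held 13915 Lyz2-icre and 8724 control cells after filtering, with median depths of 6374 and 9379.5 UMIs. They shared 43 cell barcodes, and 14 of these barcodes belonged to a cycling C1q cell in either library.

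Cycling cells were the deeper cells of both libraries. Their median was 10855 UMIs and 3350.5 genes in the Lyz2-icre library, against 6276 UMIs and 2224.5 genes in its non-cycling C1q cells. In the control library the medians were 14608 UMIs and 3976 genes in cycling cells, against 9041 UMIs and 2802.5 genes in non-cycling cells. The mitochondrial share was similar in both classes, with medians of 0.741% in cycling and 0.798% in non-cycling Lyz2-icre cells, and of 1.52% in cycling and 1.67% in non-cycling control cells. The median member had 11 Mki67 and Top2a UMIs in the Lyz2-icre library and 14 in the control library. At the threshold, the 266 Lyz2-icre cells with 3 such UMIs had 804 CPM of the other mitotic cyclin and kinase genes, against 541 CPM in the 485 cells with 2. In the control library the 163 cells with 3 UMIs had 420 CPM and the 359 cells with 2 had 273 CPM. The limit on C1q cut through few cells, since 37 Lyz2-icre and 39 control members had 0.3 to 0.4% of their UMIs from C1q genes and 30 and 28 cells that met the other conditions had 0.2 to 0.3%.

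The label was checked against marker genes. Members carried UMIs of 12 of 12 macrophage markers, of which C1qa, C1qb and C1qc were used by the rule, and their summed level was 22984 CPM in Lyz2-icre and 23471 CPM in control members, against 27963 and 29211 CPM in the non-cycling cells of the same libraries. Csf1r, the receptor for the macrophage growth factor CSF1 and outside the rule, stood at 496 CPM in Lyz2-icre and 520 CPM in control members. Markers of other cells were present at different levels. Plasmacytoid dendritic cell markers (4 of 4) summed to 378 CPM in Lyz2-icre and 321 CPM in control members, against 424 and 378 CPM in the non-cycling cells, with Siglech at 1.47 CPM in Lyz2-icre and 0.109 CPM in control members. Monocyte markers (6 of 6) summed to 724 CPM in Lyz2-icre and 761 CPM in control members, against 826 and 851 CPM in the non-cycling cells. The epithelial gene Epcam was at 4.78 CPM in Lyz2-icre and 4.23 CPM in control members, the epithelial keratins Krt7, Krt8, Krt18 and Krt19 had no UMI in members of either library, and neither had the erythroid markers Hba-a1 and Hbb-bs. Neutrophil markers (6 of 6) summed to 28.5 CPM in Lyz2-icre and 59.0 CPM in control members. Lymphocytes other than natural killer cells were at 5.01 CPM of T cell markers in Lyz2-icre and 4.29 CPM in control members (5 of 8, with the Cd3 genes at 0 by the rule), and B or plasma cell markers summed to 7.21 CPM in Lyz2-icre and 13.5 CPM in control members. Natural killer markers (6 of 6 with a UMI) summed to 30.0 CPM in Lyz2-icre and 42.0 CPM in control members. In the non-cycling cells they were at 35.4 and 18.3 CPM. Fibroblast or tumour mesenchyme markers (4 of 4) summed to 123 and 204 CPM in members, against 134 and 121 CPM. Markers of type 1 conventional dendritic cells (4 of 4) summed to 40.5 CPM in Lyz2-icre and 31.1 CPM in control members, against 34.4 and 35.4 CPM. Type 2 markers were at 10.3 and 15.9 CPM, against 6.79 and 12.7 CPM. Migratory dendritic cell markers were at 25.5 and 49.8 CPM, against 21.0 and 54.5 CPM. Some sets of other cells were thus higher in members than in non-cycling cells. Ly6c2, the classical monocyte surface gene, was at 23.6 CPM in cycling and 48.3 CPM in non-cycling Lyz2-icre cells, and at 9.82 CPM in cycling and 26.8 CPM in non-cycling control cells.

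Signs of 2 cells under 1 barcode were more frequent in the cycling class. Scrublet, a doublet caller, called 0 doublets in either library and so did not work here as a caller. The barcodes with its highest scores, up to 0.8% per 1000 barcodes, made up 19.8% of cycling and 7.28% of non-cycling Lyz2-icre cells, and 12.9% of cycling and 4.30% of non-cycling control cells. UMIs of the female gene Xist and of a Y-linked gene stood together in 11.7% of cycling and 4.99% of non-cycling Lyz2-icre cells, and in 11.3% of cycling and 5.92% of non-cycling control cells. These cells were deeper than the rest, with 11692 UMIs at the median of Lyz2-icre and 16169 UMIs at that of control C1q cells that held both, and their part in the results was not tested beyond leaving them out. Gene counts without these cells are given beside the results below.

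Among C1q cells, 18.7% were cycling in the Lyz2-icre library (1900 of 10137, interval 17.99 to 19.5%) and 21.6% in the control library (1214 of 5609, interval 20.6 to 22.7%). The ratio of the shares was 0.866 (interval 0.812 to 0.923). This order turned with depth. The share was under 15% in each band of cells below 8000 UMIs in both libraries, with no steady order among those bands, and above that it climbed from band to band. Of C1q cells with 12000 to 16000 UMIs 49.3% of Lyz2-icre and 33.2% of control cells were cycling, and of those with 24000 or more 84.7% and 72.4%. When each cell was thinned to 5000 UMIs, which left out 3051 Lyz2-icre and 734 control C1q cells below that depth, the cycling share was 18.7% in Lyz2-icre (1336 of 7157) and 17.0% in control (847 of 4968). The ratio was then 1.09 (interval 1.01 to 1.18), on the other side of 1. With 2000 UMIs and 1 or more Mki67 and Top2a UMIs it was 23.7% in Lyz2-icre and 24.7% in control, a ratio of 0.959 whose interval of 0.904 to 1.02 spans 1. No order of the libraries can be read from these shares. For comparison with cells that rarely divide, 6 of 103 control neutrophils (5.83%, interval 2.17 to 12.2%) had a Mki67 or Top2a UMI at 2000 UMIs, and no Lyz2-icre neutrophil reached that depth. Median depths before thinning were 2940 UMIs in these neutrophils and 10562 UMIs in the control C1q cells. Of all kept cells, cycling C1q cells made up 13.7% in the Lyz2-icre library and 13.9% in the control library.

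Both libraries held cells of both sexes. Cells that showed Xist but nothing from the 4 Y-linked genes were counted as female, and cells with Y-linked UMIs but without Xist as male. Female cells made up 49.9% of Lyz2-icre and 61.9% of control members, and male cells 26.1% and 22.6%. The rest held both markers, as given above, or neither. Cells with neither made up 12.3% of Lyz2-icre and 4.28% of control members, and 19.2% and 11.0% of the non-cycling cells. Of female C1q cells 16.3% were cycling in Lyz2-icre and 22.4% in control, a ratio of 0.731 (interval 0.671 to 0.796). Of male C1q cells 26.3% were cycling in Lyz2-icre and 20.7% in control, a ratio of 1.27 (interval 1.12 to 1.45). After thinning to 5000 UMIs the ratios were 0.855 in female and 1.61 in male cells, on the same sides of 1. Whether the sexes come from separate mice, tumours or cages was not given, so sex, animal and genotype cannot be told apart here.

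**Figure D1:**
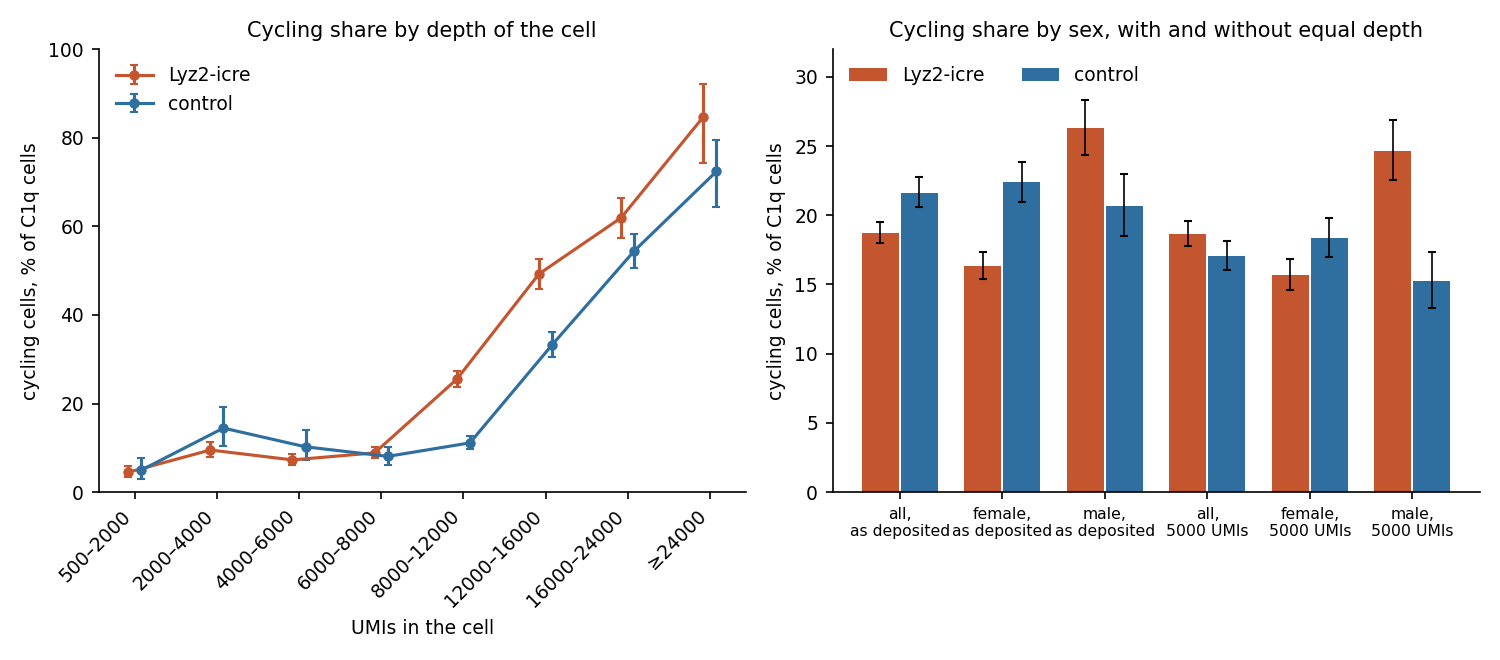
Share of C1q cells that were cycling (y axis, %), on the left by the number of UMIs in the cell and on the right by sex, with the UMIs as deposited or after thinning to 5000 UMIs; points and bars are 1 library each (Lyz2-icre orange, control blue) and error bars are 95% Clopper-Pearson intervals. The share is 84.7% of Lyz2-icre and 72.4% of control cells at 24000 UMIs or more, and the order of the libraries is opposite in female and male cells.

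Genes of the cell cycle were far higher in cycling than in non-cycling C1q cells. Of 7997 genes compared, 178 (2.23%) were at least 2-fold higher in cycling than in non-cycling C1q cells in both libraries and 2 (0.025%) were at least 2-fold lower. Since the rule chose cells on Mki67 and Top2a, which move with other cycle genes, these counts describe the cells and test nothing. Many cycle genes reached the 10 CPM needed for comparison through the cycling cells alone. Without the highest Scrublet scores the counts were 198 and 9, and without cells carrying both sex markers 188 and 4. Leaving out Mki67 and Top2a, the highest log2 ratio with 5 CPM added was that of Pclaf, a partner of the replication clamp PCNA, at 532 CPM in cycling and 15.5 CPM in non-cycling Lyz2-icre cells, and at 485 CPM in cycling and 9.99 CPM in non-cycling control cells (log2 4.71 and 5.03).

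Genes of G1 and of the start of S phase moved less than genes of mitosis. Of 16 G1/S regulators, 1 passed the 2-fold call, which also asks for 50 CPM in the higher class of both libraries. Their median log2 ratio was 0.83 in Lyz2-icre and 0.97 in control, beside medians of 0.06 and 0.07 over all genes. The gene that passed was E2f8, a repressor of the E2F family, at 64.3 CPM in cycling and 7.78 CPM in non-cycling Lyz2-icre cells, and at 60.4 and 5.68 CPM in those of the control library. Ccne2 (log2 2.34 in Lyz2-icre and 2.18 in control), E2f7 (2.20 and 2.31) and Rbl1 (1.87 and 1.62) were past 2-fold but short of 50 CPM in 1 or both libraries. Cyclin D2 (Ccnd2), which acts before S phase, was not higher in cycling cells, with 64.0 CPM against 74.7 CPM in non-cycling Lyz2-icre cells and 74.3 CPM against 90.4 CPM in non-cycling control cells. Of 17 origin licensing and helicase genes, 10 passed (medians 1.48 and 1.70). Mcm7, a subunit of the MCM helicase, was at 96.1 CPM in cycling and 18.005 CPM in non-cycling Lyz2-icre cells, and at 106 CPM in cycling and 16.6 CPM in non-cycling control cells.

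S phase machinery followed. Of 29 replication fork genes 14 passed (medians 1.38 in Lyz2-icre and 1.51 in control), led by Clspn, the checkpoint adaptor claspin, with log2 ratios of 3.24 and 3.48. Of 19 nucleotide synthesis genes 8 passed (medians 1.0003 and 1.03). Rrm2, the regulated subunit of ribonucleotide reductase, was at 126 CPM in cycling and 4.41 CPM in non-cycling Lyz2-icre cells, and at 123 CPM in cycling and 2.89 CPM in non-cycling control cells. Thymidine kinase (Tk1) had log2 ratios of 3.45 and 3.50. At the other end, Nme1, a nucleoside diphosphate kinase that resting cells also use, had log2 ratios of 0.28 and 0.35. Of 18 DNA repair and checkpoint genes 3 passed, with medians of 1.64 and 1.66.

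The lists of mitosis had higher medians than those of DNA replication. Of 23 mitotic cyclins and kinases 12 passed, with medians of 2.77 in Lyz2-icre and 2.82 in control. Ccna2, cyclin A2, was at 146 CPM in cycling and 3.37 CPM in non-cycling Lyz2-icre cells, and at 126 CPM in cycling and 3.14 CPM in non-cycling control cells. Of 32 spindle and cytokinesis genes 23 passed (medians 2.97 and 2.95). The microtubule bundler Prc1, needed to form the midzone of the anaphase spindle, was at 191 CPM in cycling and 3.97 CPM in non-cycling Lyz2-icre cells, and at 175 CPM in cycling and 2.89 CPM in non-cycling control cells. Nusap1, Kif11 and Tpx2, which bind or move spindle microtubules, had log2 ratios between 3.89 and 4.51 over both libraries. Of 33 centromere and kinetochore genes 15 passed, among them Birc5 (survivin), with log2 ratios of 4.28 and 4.49, and Cenpf, with 4.23 and 4.10. Of 15 condensin and cohesin genes 9 passed, led by the condensin subunit Smc2 with log2 ratios of 3.48 and 3.37.

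Genes of the anaphase-promoting complex, the ubiquitin ligase that ends mitosis, covered a wide range. Of 19 genes 18 lay above 0 in Lyz2-icre and 19 in control, with medians of 0.63 and 0.65. Its E2 enzyme Ube2c was at log2 4.10 in Lyz2-icre and 3.93 in control, and its activator Cdc20 at 2.98 and 3.02. The lowest genes at 20 CPM or more, the subunits Anapc13 and Cdc26, lay between -0.06 and 0.12. In all, 3 of 19 genes of the list passed. Chromatin proteins of dividing cells were raised over a broad range of levels, with 16 of 18 passing. H2az1, a histone variant of promoters, reached 3195 CPM in cycling and 1052 CPM in non-cycling Lyz2-icre cells, and 2921 CPM in cycling and 1050 CPM in non-cycling control cells. Hmgb2, a DNA-bending protein, had log2 ratios of 2.81 and 2.67. Of 12 replication-dependent histone genes 3 passed, with H1f5 highest at log2 4.59 and 4.58. Most transcripts of this histone family carry no poly(A) tail, and its members share near-identical sequence, so the split of reads among H1f5, H2ac24 and H2ac8 is uncertain.

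Division came with 2 of the cell's own brakes. Cdkn2c, an inhibitor of the G1 kinases Cdk4 and Cdk6, was at 89.5 CPM in cycling and 12.1 CPM in non-cycling Lyz2-icre cells, and at 95.04 CPM in cycling and 13.5 CPM in non-cycling control cells. Cdkn2d, a second inhibitor of the same kinases, had log2 ratios of 2.13 in Lyz2-icre and 1.90 in control. These were the 2 of 13 genes in the list of inhibitors and arrest genes that passed. The antiproliferative gene Btg1 went the other way without passing, at 905 CPM in cycling and 1182 CPM in non-cycling Lyz2-icre cells, and at 874 CPM in cycling and 1229 CPM in non-cycling control cells.

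**Figure D2:**
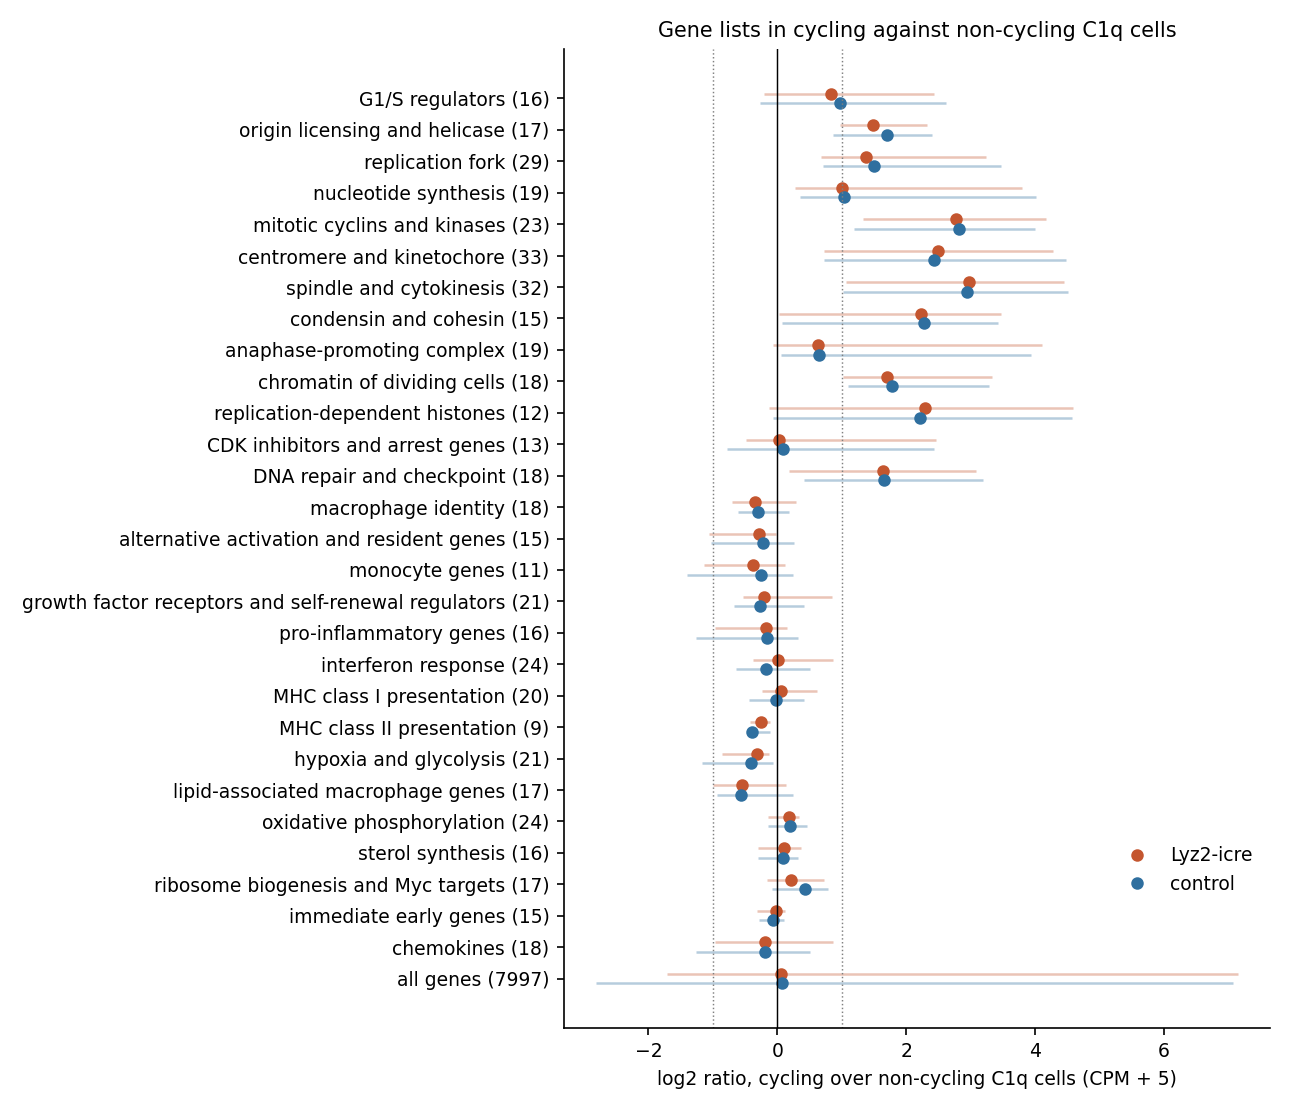
Median log2 ratio of cycling over non-cycling C1q cells for each gene list (points), with the lowest and highest gene as a line, in the Lyz2-icre (orange) and control (blue) library; the number of genes measured is in brackets and dotted lines mark 2-fold. Spindle and cytokinesis genes have the highest medians, 2.97 in Lyz2-icre and 2.95 in control, and lipid-associated macrophage genes the lowest, -0.54 and -0.57.

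Promoters of these genes were read because they carry short sequence elements known from the cell cycle. The CHR element (TTTGAA) and CCAAT boxes are known in promoters that act in G2 and mitosis, and E2F-type elements (TTTNNCGC) in promoters that act at the start of S phase. Letters were searched on both strands from 250 bases before to 50 bases after the start, and CCAAT is read as ATTGG on the other strand. Sequences are from RefSeq, build GRCm38.p6, and 146 of 176 symbols of genes at least 2-fold higher in cycling cells, other than Mki67 and Top2a, had an entry, with 170 promoters. The first 3 promoters below belong to genes of mitosis (cyclin B2, the anaphase activator Cdc20 and the kinetochore protein Cenpf) and the last 2 to genes of DNA replication, and capitals mark the matches.
Ccnb2, chr9:70421505-70421804, minus strand: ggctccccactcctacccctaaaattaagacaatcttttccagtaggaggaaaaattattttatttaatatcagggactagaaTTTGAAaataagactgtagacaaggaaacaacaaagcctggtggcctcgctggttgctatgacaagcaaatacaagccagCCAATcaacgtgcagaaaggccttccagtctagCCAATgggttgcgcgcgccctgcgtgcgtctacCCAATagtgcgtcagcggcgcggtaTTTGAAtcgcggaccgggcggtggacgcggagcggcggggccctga
Cdc20, chr4:118437294-118437593, minus strand: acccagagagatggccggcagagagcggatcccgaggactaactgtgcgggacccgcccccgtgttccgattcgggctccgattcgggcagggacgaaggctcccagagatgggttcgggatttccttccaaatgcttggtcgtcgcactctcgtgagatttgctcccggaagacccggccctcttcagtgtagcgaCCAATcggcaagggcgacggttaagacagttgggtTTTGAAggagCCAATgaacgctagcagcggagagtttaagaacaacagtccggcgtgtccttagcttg
Cenpf, chr1:189688037-189688336, minus strand: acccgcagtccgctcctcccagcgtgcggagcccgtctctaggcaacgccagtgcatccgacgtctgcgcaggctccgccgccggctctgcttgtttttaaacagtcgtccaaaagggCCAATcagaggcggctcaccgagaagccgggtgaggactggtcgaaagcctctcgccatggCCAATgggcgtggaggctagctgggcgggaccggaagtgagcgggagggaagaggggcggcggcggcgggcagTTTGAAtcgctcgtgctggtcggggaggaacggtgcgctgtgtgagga
Pclaf, chr9:65890073-65890372, plus strand: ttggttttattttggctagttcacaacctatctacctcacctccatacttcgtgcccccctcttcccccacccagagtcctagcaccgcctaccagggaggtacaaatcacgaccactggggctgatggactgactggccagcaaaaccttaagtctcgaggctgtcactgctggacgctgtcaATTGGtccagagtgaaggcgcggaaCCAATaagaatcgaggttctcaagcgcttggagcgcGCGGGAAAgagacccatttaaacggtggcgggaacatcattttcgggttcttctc
Mcm6, chr1:128359656-128359955, minus strand: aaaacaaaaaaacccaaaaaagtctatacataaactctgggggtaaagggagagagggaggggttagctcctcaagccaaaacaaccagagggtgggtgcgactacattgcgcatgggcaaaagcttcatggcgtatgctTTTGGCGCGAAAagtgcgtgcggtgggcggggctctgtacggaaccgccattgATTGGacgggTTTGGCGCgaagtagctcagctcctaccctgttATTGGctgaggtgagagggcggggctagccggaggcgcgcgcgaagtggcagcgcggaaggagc

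CHR letters occurred in 74.3% of 35 promoters of called genes in the G2 and M phase list, in 22.2% of 18 promoters of called genes in the S phase list, in 12.5% of 8157 promoters of the genes compared, and in 17.9% of all 32851 promoters. E2F-type letters occurred in 11.4% of the G2 and M promoters, in 38.9% of the S promoters, in 9.17% of those of the genes compared and in 5.17% of all, so the G2 and M share lies near that of the genes compared. CCAAT occurred in 71.4% of the G2 and M promoters, in 83.3% of the S promoters, in 37.7% of those of the genes compared and in 37.4% of all. In Cdc20 the CHR letters begin 18 bases before the start, between 2 CCAAT boxes, and in Cenpf they begin at base 3 of the transcript. Ccnb2 has 3 CCAAT boxes and 2 CHR matches. In Pclaf the E2F-type match begins 5 bases before the start and spans it, and in Mcm6 2 of the 3 such matches overlap on opposite strands. Ccnb2 was at 157 CPM in G2/M-led and 14.1 CPM in S-led Lyz2-icre members, as defined below, while Mcm6 was at 81.8 CPM in G2/M-led and 272 CPM in S-led members of that library. Those classes were sorted on genes of these phases, so the values describe the sorting. A match is a description of the letters in this window and does not show that a factor binds there.

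Members were described by their S and G2/M transcripts. After thinning to 5000 UMIs, the 51 genes of a G2 and M phase list summed to a median of 40 UMIs in Lyz2-icre and 36 UMIs in control members, against 5 UMIs in the non-cycling cells of each library. The 42 genes of an S phase list summed to a median of 14 UMIs in members of both libraries, against 2 UMIs in Lyz2-icre and 3 UMIs in control non-cycling cells. The G2/M sum was above the S sum (G2/M-led) in 77.8% of 1678 Lyz2-icre members and 71.7% of 1143 control members. The S sum was above the G2/M sum (S-led) in 21.1% of Lyz2-icre members (interval 19.2 to 23.1%) and 26.4% of control members (interval 23.9 to 29.1%). The lists differ in size, non-cycling cells also had more G2/M than S UMIs, and the rule picked late genes, so the lead of G2/M does not place members in the cycle. The rule took members with Mki67 and Top2a and non-cycling cells without them. The gap in G2/M sums between members and non-cycling cells is therefore a description of that choice and tests nothing. These classes are ranges of a score, and 100 Lyz2-icre and 101 control members lay within 2 UMIs of the line between them. Since Mki67 and Top2a are late genes, the rule leaves out part of S phase, and 4.02% of non-cycling Lyz2-icre and 2.84% of non-cycling control cells had an S sum at or above the median of the members.

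S-led and G2/M-led members were sorted on genes of these phases, so differences of cycle genes between them describe the sorting and test nothing. Pcna, the replication clamp, was at 235 CPM in G2/M-led and 557 CPM in S-led Lyz2-icre members, and at 270 CPM in G2/M-led and 579 CPM in S-led control members. Plk1, the polo-like kinase of mitosis, was at 71.6 CPM in G2/M-led and 7.74 CPM in S-led Lyz2-icre members, and at 62.5 CPM in G2/M-led and 5.10 CPM in S-led control members. Genes outside the cycle differed less. Arg1, an arginase, was at 693 CPM in G2/M-led and 683 CPM in S-led Lyz2-icre members, and at 393 CPM in G2/M-led and 382 CPM in S-led control members. The inflammatory cytokine gene Il1b was at 1145 CPM in G2/M-led and 832 CPM in S-led Lyz2-icre members, and at 1540 CPM in G2/M-led and 1052 CPM in S-led control members, lower in S-led members of both libraries.

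The members were also divided by their level of Mki67 and Top2a, which the rule used, so the following is a description. From members under 500 CPM of the 2 genes to those at 2000 CPM or more, the mitotic cyclins and kinases other than these genes went through 766, 1467, 2215 and 2822 CPM in the Lyz2-icre library and through 470, 1286, 2135 and 2787 CPM in the control library. Replication-dependent histones went through 379, 781, 1338 and 1731 CPM in Lyz2-icre and 270, 621, 1369 and 1954 CPM in control. Replication fork genes went through 1934, 2067, 1998 and 1887 CPM in Lyz2-icre and 1797, 2293, 2384 and 2164 CPM in control. Origin licensing genes lay between 1046 and 1182 CPM in Lyz2-icre and between 1078 and 1278 CPM in control. Median depth of these bands ran from 9627 to 12160 UMIs in Lyz2-icre and from 13466 to 15918 UMIs in control.

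**Figure D3:**
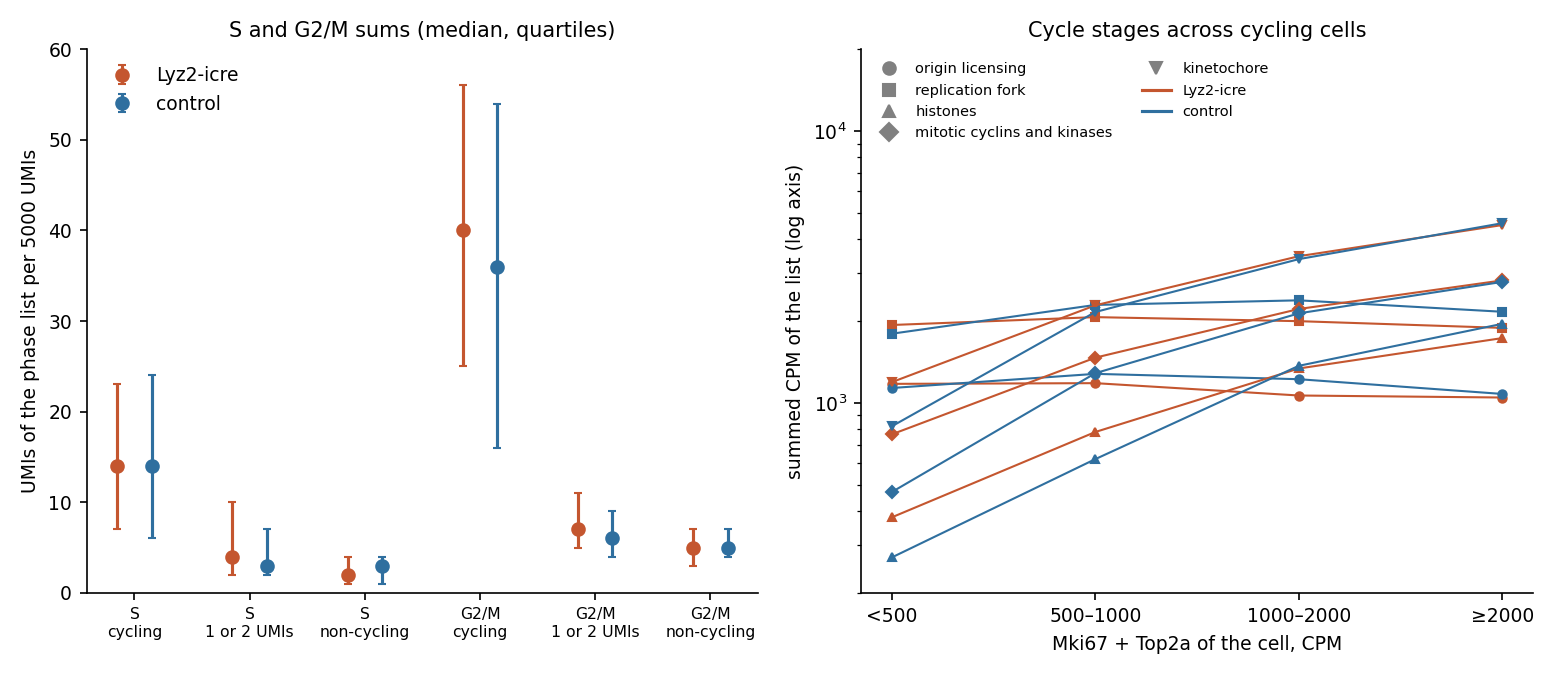
Left, UMIs of the S and G2/M phase lists per 5000 UMIs (median with quartiles) in cycling cells, cells with 1 or 2 Mki67 and Top2a UMIs and non-cycling cells; right, summed CPM of cycle gene lists (log axis) in cycling cells by their Mki67 and Top2a level; Lyz2-icre is orange and control blue. The G2/M median is 40 UMIs in Lyz2-icre and 36 UMIs in control cycling cells, and on the right licensing genes lie between 1046 and 1278 CPM while histone, cyclin and kinase, and kinetochore genes are higher at higher Mki67 and Top2a.

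Several macrophage programmes were lower in cycling cells, by smaller steps than the cycle genes. Others were not lower in both libraries or lay near 0. Interferon response genes had medians of 0.01 in Lyz2-icre and -0.17 in control, and MHC class I presentation genes 0.06 and -0.02. At 2-fold the call held Thbs1 and Slfn5 alone. Thbs1, the matrix protein thrombospondin 1, was at 171 CPM in cycling and 379 CPM in non-cycling Lyz2-icre cells, and at 298 CPM in cycling and 635 CPM in non-cycling control cells. Slfn5, a member of the interferon-induced Schlafen family, was at 28.9 CPM in cycling cells of both libraries, against 66.0 CPM in non-cycling Lyz2-icre and 82.6 CPM in non-cycling control cells. At a limit of 1.5-fold in both libraries, added after the data were seen, 40 genes (0.5%) were lower and 315 (3.94%) higher. When non-cycling cells were limited to those at or above the lower quartile of depth of the cycling cells, the 2-fold counts changed. The count of lower genes was 10 in place of 2, with only 1 of the 2 still among them, and that of higher genes was 175.

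Lipid-associated macrophage genes, which tumour and adipose macrophages turn on when they take up lipid and cell debris, had the lowest median, -0.54 in Lyz2-icre and -0.57 in control. Of 17 genes, 6 passed the limit of 1.5-fold and 50 CPM as lower in both libraries (Fabp5, Abca1, Ctsd, Cd63, Lgals3 and Ctsl) and none as higher. Fabp5, a fatty acid carrier, was at 491 CPM in cycling and 923 CPM in non-cycling Lyz2-icre cells, and at 262 CPM in cycling and 503 CPM in non-cycling control cells. Lgals3, the lectin galectin-3, was at 1917 CPM in cycling and 3201 CPM in non-cycling Lyz2-icre cells, and at 1459 CPM in cycling and 2615 CPM in non-cycling control cells. The lysosomal protease gene Ctsl had log2 ratios of -0.84 and -0.82.

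Genes of the low-oxygen response and glycolysis lay below 0 in 21 of 21 cases in both libraries, with medians of -0.32 in Lyz2-icre and -0.40 in control. Bnip3, Ero1a and Vegfa passed the limit of 1.5-fold and 50 CPM in both libraries. Vegfa, the main growth factor for vessels, was at 100 CPM in cycling and 186 CPM in non-cycling Lyz2-icre cells, and at 85.0 CPM in cycling and 197 CPM in non-cycling control cells. Arg1, the arginase of alternatively activated macrophages, was at 691 CPM in cycling and 1308 CPM in non-cycling Lyz2-icre cells, and at 389 CPM in cycling and 796 CPM in non-cycling control cells. Monocyte genes had medians of -0.38 and -0.25, and 3 of 11 passed the same limit as lower in both libraries (Thbs1, Plac8 and F10).

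Of 18 macrophage identity genes, 16 lay below 0 in Lyz2-icre and 17 in control (medians -0.35 and -0.29), and 1 of them, Cd63, passed 1.5-fold. Maf, a transcription factor of macrophages, was at 217 CPM in cycling and 264 CPM in non-cycling Lyz2-icre cells, and at 283 CPM in cycling and 314 CPM in non-cycling control cells. The fractalkine receptor gene Cx3cr1 went the other way, at 351 CPM in cycling and 286 CPM in non-cycling Lyz2-icre cells, and at 466 CPM in cycling and 409 CPM in non-cycling control cells. All 9 genes of MHC class II presentation lay below 0 in both libraries, with medians of -0.26 and -0.40 and none past 1.5-fold. A chemokine stood out upward, since Cxcl10, which attracts T cells, was at 664 CPM in cycling and 361 CPM in non-cycling Lyz2-icre cells, and at 470 CPM in cycling and 330 CPM in non-cycling control cells (log2 0.87 and 0.50). A CPM is a share of the RNA and cycling cells held more UMIs, so a lower CPM does not show fewer copies per cell.

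**Figure D4:**
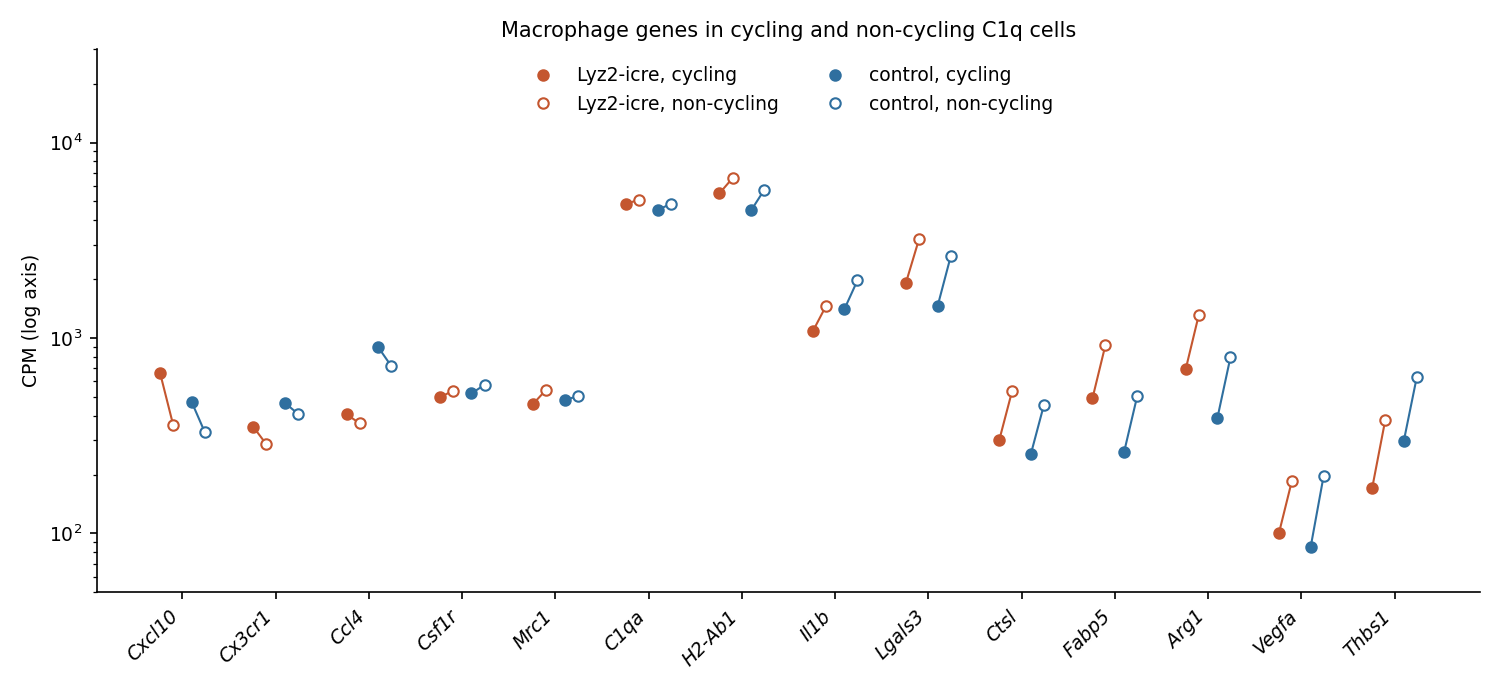
CPM (log axis) of 14 macrophage genes in cycling (filled) and non-cycling (open) C1q cells of the Lyz2-icre (orange) and control (blue) library. Arg1 stands at 691 CPM in cycling and 1308 CPM in non-cycling Lyz2-icre cells, and Thbs1, Vegfa, Fabp5 and Ctsl are lower in cycling cells of both libraries.

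The cells can also be read the other way round, by the share that was cycling among C1q cells with and without a UMI of a gene, each thinned to 5000 UMIs. For genes already found lower in cycling cells this restates that result. Of Lyz2-icre C1q cells with a Thbs1 UMI, 12.8% were cycling (389 of 3030), against 22.9% of those without (947 of 4127). Of control C1q cells with a Thbs1 UMI, 12.9% were cycling (335 of 2587), against 21.5% of those without (512 of 2381). With an Arg1 UMI 15.9% of Lyz2-icre cells were cycling, against 24.5% without, and in the control library 14.5% with and 19.5% without. For Ccl8, which was 1.5-fold lower in cycling cells over both sexes, the shares lay closer. They were 17.5% cycling among Lyz2-icre cells with a UMI and 19.2% without, and 16.6% with and 17.2% without among control cells. Its log2 ratio of cycling over non-cycling cells was -0.97 in Lyz2-icre and -0.997 in control female cells. In male cells it was -0.06 and -0.30, short of 1.5-fold. For Mrc1, the mannose receptor of alternatively activated macrophages, the intervals overlap, with 18.8% cycling among Lyz2-icre cells with a UMI and 17.96% without, and 17.1% with and 17.0% without among control cells. Spp1 itself could be read this way in the control library. There 18.1% of C1q cells with a Spp1 UMI were cycling (interval 16.6 to 19.6%), and 15.8% of those without (interval 14.3 to 17.4%). An overlap of such intervals does not show equal shares. By CPM Spp1 went the other way, with 472 CPM in control members and 667 CPM in control non-cycling cells, and the cause was not tested. The cells of each share come from 1 library, so they are not replicates, and a UMI of one gene takes the place of another at a fixed depth.

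The targeted gene was read first in the comparison of genotypes. Spp1 (chr5:104435118-104441050, plus strand, GENCODE vM21 on mm10) had 196 UMIs or 9.005 CPM in Lyz2-icre members and 8705 UMIs or 472 CPM in control members (ratio 0.0191, interval 0.0165 to 0.0220). In non-cycling C1q cells it was at 3.95 CPM in Lyz2-icre and 667 CPM in control. Its level in control members was thus below that of control non-cycling cells (log2 -0.49), and that of Lyz2-icre members above that of Lyz2-icre non-cycling cells (log2 0.65, from few UMIs). In Lyz2-icre cells counted as female or male, as above, the latter ratio was smaller, at log2 0.36 in female and -0.03 in male cells. The floxed exons were not given, so a 3-prime read could come from RNA of a deleted copy. Lyz2, the gene whose locus carries the Cre, was at 3682 CPM in Lyz2-icre and 9175 CPM in control members, and at 4073 CPM in Lyz2-icre and 12135 CPM in control non-cycling cells.

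Few genes passed the 1.5-fold call between members of the 2 genotypes. Of 8165 genes compared, 15 (0.184%) were at least 1.5-fold higher in Lyz2-icre with an interval clear of 1, and 44 (0.539%) at least 1.5-fold lower. Non-cycling cells gave similar numbers, 18 (0.233%) higher and 37 (0.479%) lower of 7719 genes. Of the higher genes 11 were shared, 73.3% of those in cycling and 61.1% of those in non-cycling cells, and of the lower genes 29, 65.9% and 78.4%. Beside a median of -0.02 over all genes, the cycle lists had medians between -0.16 (replication fork) and 0.12 (replication-dependent histones). Over all members no gene of these lists passed apart from Btg2, an antiproliferative early response gene in the list of inhibitors and arrest genes. It was at 436 CPM in Lyz2-icre and 674 CPM in control members. At the shares of all genes that passed, few calls would fall in these lists in any case, so their count does not set cycle genes apart. The largest change of a kinetochore gene was that of the scaffold Knl1, at 71.7 CPM in Lyz2-icre and 106 CPM in control members (log2 -0.54). Within a sex, Knl1 passed as lower in female members (log2 -0.63, with -0.38 in male members). The cyclin gene Ccnb1 passed as higher in male members (log2 0.63, with 0.25 in female members).

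Of 16 genes of alternative activation and resident macrophages, 3 were higher in Lyz2-icre members (Retnla, Ccl8 and Arg1), while 9 of the 16 lay below 0 and the median was -0.10. Retnla, a secreted protein of alternatively activated macrophages, was at 50.8 CPM in Lyz2-icre and 3.37 CPM in control members (ratio 15.1, interval 11.7 to 19.8). Ccl8, a monocyte and T cell chemokine, was at 318 CPM in Lyz2-icre and 122 CPM in control members, and at 525 CPM in Lyz2-icre and 202 CPM in control non-cycling cells. Arg1 stood at 691 CPM in Lyz2-icre and 389 CPM in control members, and Slc7a2, which carries arginine into the cell, at 141 CPM in Lyz2-icre and 77.8 CPM in control members. Both held in female members alone, with log2 ratios in male members of -0.04 for Arg1 and -0.66 for Slc7a2. In the list of low-oxygen and glycolysis genes 20 of 21 lay above 0 over all members (median 0.39). The 3 that passed were the mitophagy receptor Bnip3 (log2 0.90), the cytokine Mif (0.81) and the glycolytic enzyme Pgk1 (0.59). In male members these lay above 0 as well (0.36, 0.58 and 0.43), while Vegfa (-0.34), Pfkp (-0.29) and Hk2 (-0.11) lay below. Ly6a, an interferon-induced surface protein, was at 574 CPM in Lyz2-icre and 282 CPM in control members, and the interferon-induced GTPase Iigp1 at 131 CPM in Lyz2-icre and 69.1 CPM in control members. These were the 2 of 25 interferon response genes that passed, with a median of 0.31. All 20 genes of MHC class I presentation lay above 0 over all members with a median of 0.25 and none passed. In male members H2-Q4 (log2 -0.17) and Erap1 (-0.10) lay below 0, while others such as B2m (0.17) and H2-Q6 (0.22) lay above. Fabp5 (log2 0.89) and Scimp, a membrane adaptor of antigen-presenting cells (log2 0.61), completed the named higher genes together with Gzmc.

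Inflammatory genes were lower in Lyz2-icre members. Of 17 pro-inflammatory genes 15 lay below 0, with a median of -0.52, and 6 passed (Tnf, Il1a, Cxcl1, Ccl3, Ccl4 and Nfkbia). In non-cycling cells the median was -0.51 and 5 passed. Ccl4, a chemokine for T cells and monocytes, was at 407 CPM in Lyz2-icre and 897 CPM in control members, and its neighbour Ccl3 at 155 CPM in Lyz2-icre and 333 CPM in control members. Tnf was at 103 CPM in Lyz2-icre and 191 CPM in control members, and Tnfsf9, the ligand of the T cell receptor 4-1BB, at 25.6 CPM in Lyz2-icre and 58.0 CPM in control members. In non-cycling cells Ccl4 had a log2 ratio of -0.96 and Tnf one of -0.67, on the same side. Thbs1 was lower as well, at 171 CPM in Lyz2-icre and 298 CPM in control members. Pou2f2, the transcription factor Oct2, had a log2 ratio of -0.80 over all members, with -1.36 in female and 0.66 in male members. The adaptor Stap1 had a log2 ratio of -0.75, the long noncoding RNA Kcnq1ot1 one of -0.75 and Mir6236 one of -1.16. Kcnq1ot1 runs antisense to Kcnq1, and whether counting used strand was not given in the sources used here.

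Gzmc and Col3a1, a granzyme of cytotoxic lymphocytes and a fibrillar collagen, are genes of other cells. Gzmc was at 73.6 CPM in Lyz2-icre and 47.0 CPM in control members, and Col3a1 at 71.0 CPM in Lyz2-icre and 127 CPM in control members. The natural killer and fibroblast markers of these members are given above, and their part in the 2 results was not tested. Without cells holding a UMI of a defining marker of another cell type, Col3a1 had a log2 ratio of 0.9975, on the other side. Among C1q cells with at least 1% of UMIs from C1q genes Gzmc had a log2 ratio of -0.20 and Col3a1 one of 1.253, so neither direction held.

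**Figure D5:**
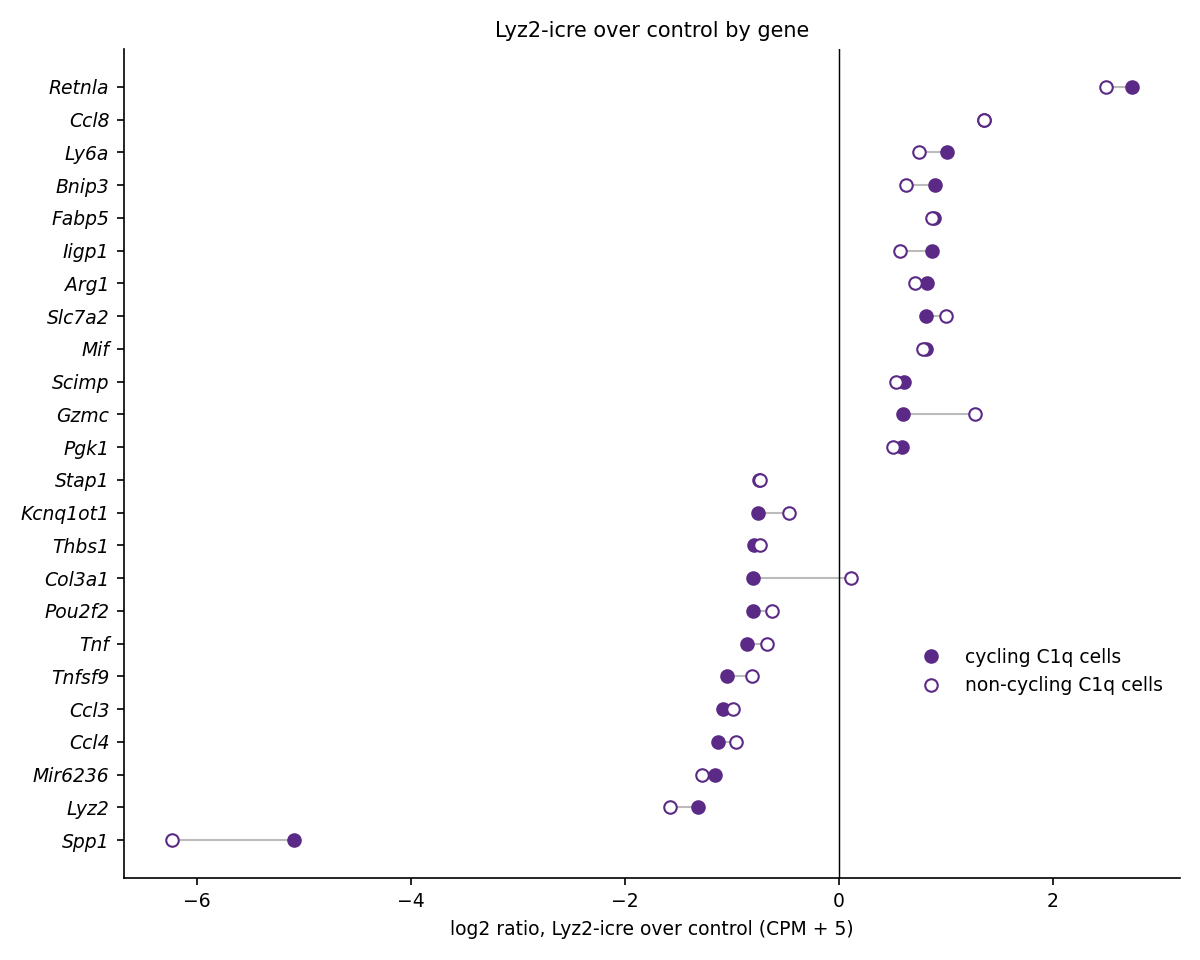
Log2 ratio of Lyz2-icre over control (x axis, CPM + 5) of the genes named by rank, Spp1 and Lyz2, in cycling (filled) and non-cycling (open) C1q cells, 1 library per genotype. Spp1 is lowest at -5.09 in cycling cells and Retnla highest at 2.74, and the classes lie close together for most genes, with Col3a1 on opposite sides of 0.

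By sex, the ratios of the 15 higher genes lay above 0 for 14 in female and 12 in male members, and those of the 44 lower genes below 0 for 44 in female and 42 in male members. Fewer passed the call within a sex, with 14 of the 15 higher genes in female and 3 in male members, and 36 of the 44 lower genes in female and 31 in male members. Numbers of members were 949 female and 495 male in Lyz2-icre, and 751 female and 274 male in control. The counts of genes past 1.5-fold were larger within a sex than over all members, with 53 higher and 68 lower in female and 31 higher and 96 lower in male members. The number of genes compared within a sex is not given here. These counts thus have no share beside them, and no result is read from their size. Retnla was at 102 CPM in female Lyz2-icre and 4.28 CPM in female control members, and at 2.65 CPM in male Lyz2-icre and 0.479 CPM in male control members. Arg1 was at 897 CPM in female Lyz2-icre and 353 CPM in female control members, and at 431 CPM in male Lyz2-icre and 442 CPM in male control members. Ccl8 was higher in Lyz2-icre members of both sexes, with log2 ratios of 1.41 in female and 1.35 in male cells. Ccl4 was lower in both, with log2 ratios of -1.45 in female and -0.25 in male cells. Spp1 was lower in Lyz2-icre members of both sexes, at -5.08 in female and -6.48 in male cells.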

How the data were processed

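UMI counts, 1 table per library, were deposited by the authors as unnormalised whole numbers for the cells their pipeline called, from 10x Genomics 3-prime (v3) libraries. The submitters' processing notes name bcl2fastq 5.0.1 and Cell Ranger with mm10, and the file headers give Cell Ranger 8.0.1. The annotation release was not given in the sources used here. Empty droplets were not used, so free RNA could not be estimated.

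Cells needed 300 genes, 500 UMIs and a mitochondrial share no higher than 15%. Total depth was 98275787 UMIs in Lyz2-icre and 88529822 UMIs in control. UMIs were summed over the cells of a class and scaled to CPM, and log2 ratios were computed with 5 CPM added. Genes at 10 CPM or more in either class were compared. A gene passed at 2-fold in both libraries (cycling over non-cycling) or at 1.5-fold with an exact conditional interval clear of 1 (genotype), with 50 CPM and 30 UMIs in the higher class. Shares have Clopper-Pearson intervals and ratios of shares log intervals, at 95%. Thinning drew each cell to 5000 or 2000 UMIs without replacement. Scrublet ran through scanpy 1.11.5 with an expected rate of 6%, beside Python 3.11.15, numpy 2.4.6, scipy 1.17.1 and pandas 2.3.3.

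Named genes were the 12 highest and 12 lowest past each call, by the smaller change of the 2 libraries for cycling over non-cycling cells, Spp1 and Lyz2, and in each list the highest 3 and lowest 2 genes at 20 CPM or more. Genes outside it (Ccnb2, Mcm6, Pcna, Mrc1, Abca1, Ctsd, Ero1a, Il1a, Nfkbia and those of opposite sign by sex) were chosen after their values were seen. The members and the 30 gene lists were chosen with earlier results of these data known. The calls were checked on simulated data. Gene coordinates are from GENCODE vM21. A few genes are not reported here.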

Additional observations from a re-analysis of the deposited data

Results flagged for a closer look

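The ratio of cycling shares of Lyz2-icre over control lay on opposite sides of 1 in the sexes, at 0.731 in female and 1.27 in male C1q cells. The difference was not tested, since each genotype had 1 library.

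Another 6 genes passed 1.5-fold in opposite directions in female and male members, and these differences were not tested either. The number of genes compared within a sex is not given here, so no result is read from their count. Cd72, an inhibitory lectin best known from B cells, had a log2 ratio of -0.66 in female and 0.85 in male members. Clec4a1, a C-type lectin of myeloid cells, had -0.72 in female and 0.95 in male members. Klf2, a transcription factor that quiets myeloid cells, had -0.64 in female and 0.78 in male members. Pou2f2 had -1.36 in female and 0.66 in male members. Il7r, the interleukin 7 receptor, had 0.89 in female and -0.61 in male members. Slc7a2, the arginine carrier, had 1.58 in female and -0.66 in male members.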

How the results depend on the processing

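The ratio of cycling shares (0.866) was 0.731 in female cells, 1.27 in male cells, 1.61 in male cells thinned to 5000 UMIs, 1.09 over all cells thinned to 5000 UMIs, and 0.959 at 2000 UMIs, so its direction was not stable. The shares themselves were 23.5% in Lyz2-icre and 28.0% in control with 2 or more Mki67 and Top2a UMIs, 14.7% and 16.8% with 5 or more, 16.9% and 20.2% without the highest Scrublet scores, and 23.7% and 24.7% at 2000 UMIs. The control share was 17.0% at 5000 UMIs, and the Lyz2-icre share 19.9% with C1q at 1% or more, 16.3% in female cells, 26.3% in male cells and 17.7% without cells holding both sex markers.

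The number of genes 2-fold higher in cycling cells stayed between 142 and 204 under every alternative run. The number 2-fold lower (2) was 1 with 20 CPM added or with C1q at 1% or more, 4 with per-cell means, with 5 or more cycle UMIs or without cells holding both sex markers, 5 with median-of-ratios scaling, 9 without the highest Scrublet scores and 10 against depth-limited non-cycling cells. Genes higher in Lyz2-icre members (15) numbered 23 with per-cell means, 53 in female and 31 in male members, and genes lower (44) numbered 68 in female and 96 in male members. Directions turned for Gzmc (-0.20 with C1q at 1% or more, -0.47 in female members, -0.41 without cells holding both sex markers), for Col3a1 (1.253 with C1q at 1% or more, 0.31 in male members, 0.9975 without cells holding a marker of another type), and in male members for Arg1 (-0.038), Slc7a2 (-0.66) and Pou2f2 (0.66). The cause was not tested. Of the other values recomputed for named genes, 421 moved little and 222 moved more, and of list medians 980 and 160.

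The settings without cells holding both sex markers and with cells of 1 sex thinned were chosen after seeing the data. No paired analysis was possible because each genotype has 1 library, and leaving out a library would leave a genotype empty. Depth limits the reading of shares, since control cells were deeper.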

Other observations

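Of 17 ribosome biogenesis genes, 15 in Lyz2-icre and 16 in control lay above 0 in cycling over non-cycling cells, with median log2 ratios of 0.22 and 0.44. The limit of 1.5-fold and 50 CPM in both libraries was passed by 1 of them. Nop58, a core protein of the RNA particles that modify ribosomal RNA, was at 84.1 CPM in cycling and 48.7 CPM in non-cycling Lyz2-icre cells, and at 93.3 CPM in cycling and 51.7 CPM in non-cycling control cells. Dkc1, which makes pseudouridine in ribosomal RNA, had log2 ratios of 0.70 and 0.72. The mitochondrial chaperone Hspe1 lay at -0.16 and -0.09.

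Of 24 oxidative phosphorylation genes, 21 lay above 0 in each library, with medians of 0.18 in Lyz2-icre and 0.20 in control, and none passed 1.5-fold in both libraries. Cycs, cytochrome c, was at 196 CPM in cycling and 158 CPM in non-cycling Lyz2-icre cells, and at 179 CPM in cycling and 129 CPM in non-cycling control cells. Between genotypes, all 17 sterol synthesis genes lay above 0 in Lyz2-icre over control members with a median of 0.15, and none passed over all members. The direction was not shared by the sexes. In male members Fdps (log2 -0.50), Sc5d (-0.36), Mvd (-0.34), Msmo1 (-0.24) and Sqle (-0.13) lay below 0, and Fdft1 (0.11) lay above. All of these lay above 0 in female members, from 0.32 for Fdps to 0.78 for Fdft1. Over all members, 12 of 15 immediate early genes lay below 0 with a median of -0.29. The lowest was the nuclear receptor Nr4a1, at 206 CPM in Lyz2-icre and 308 CPM in control members.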
